A study of Mus musculus with 18 samples.

Results

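The genes described here are 10 that set the pace of the early cell cycle: the D cyclins Ccnd1, Ccnd2 and Ccnd3, their kinase partners Cdk4 and Cdk6, the CIP/KIP inhibitors Cdkn1a (p21), Cdkn1b (p27) and Cdkn1c (p57), and the INK4 inhibitors Cdkn2c (p18) and Cdkn2d (p19). Their rows were found by symbol. Of these, 9 matched a row among the 54232 gene identifiers of the nascent RNA count table. Cdkn2d matched no row by its symbol or a listed synonym and was not analysed here. Only 32651 of the identifiers have a symbol, so a row without one may hold it.

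D cyclins bind CDK4 or CDK6, and the active complexes phosphorylate the retinoblastoma protein and its relatives, which releases the E2F factors and lets a cell pass from G1 into S phase. INK4 proteins bind CDK4 and CDK6 directly and keep D cyclins off them, while CIP/KIP proteins bind complexes of cyclin and kinase and mainly restrain CDK2. Red cell precursors divide fast as progenitors and leave the cell cycle as they mature, and cyclin D3, CDK6, p27 and p18 are all known for roles in the number or timing of those divisions.

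The measurement was 4sU-seq of newly made RNA in cells of C57BL/6 fetal livers, taken from embryos at e12.5-e13.5. Sorted cells were rested in medium and then labelled with 500 µM 4-thiouridine, a uridine analogue built into RNA as it is made, for 45 min, and the labelled RNA was isolated through biotin and sequenced. All 6 populations came from the same strain and tissue with the same labelling, so no group was genetically changed or left unlabelled. There are 3 libraries of each population and 18 in all.

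The 5 erythroid populations were negative for lineage markers (Lin-) and were told apart by the transferrin receptor CD71 and the erythroid surface marker Ter119. S0-Low cells were labelled CD71 low and were Ter119-, and the gate is described as holding stem and progenitor cells and the earliest committed erythroid progenitors (BFU-E). S0-Medium cells had medium CD71 and no Ter119 (early CFU-E, the next progenitor), and S1 cells had high CD71 and no Ter119 (late CFU-E). S2 and S3 cells were CD71 high with medium and high Ter119, and are the terminally maturing cells. Lin+ cells carry the markers of other blood lineages that the sort removed. Each gate can hold several cell types, and in such bulk samples fewer cells of a type and less RNA per cell cannot be told apart.

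Library totals ranged from 9452476 counts in S0-Low replicate 3 to 40567976 counts in S1 replicate 1. Summed normalized counts of 6 erythroid markers rose from between 13130 and 26490 in S0-Low to between 715400 and 1222000 in S3, and lay between 6705 and 8350 in Lin+. Neutrophil and myeloid precursor markers summed to between 10860 and 25450 in S0-Low and to at most 40.4 in S3, where 5 of the 6 were at or under 3 counts in every library. Itgam, one of those 6, was at or under 3 counts in every library of all 6 populations, Lin+ included, so it checks nothing here.

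Replicate 3 stood apart for several of the 9 genes. It was the lowest library of all 5 erythroid populations for Ccnd2 and Cdkn1a, the highest of all 5 for Cdkn1b, and the lowest of 4 of 5 for Cdk4 and Cdk6. It also had the highest summed erythroid markers of each erythroid population, for example 168400 in S1 against 80910 and 79450 in the other libraries. What the number marks is not given in the sources used here. Calls that change when replicate 3 of every population is left out are given beside the results, an alternative chosen after the values were seen.

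The promoters of the kinases Cdk4 and Cdk6 and of the inhibitor Cdkn2c are shown because both kinases were called lower in S3 against S0-Low, S1 and S2, while Cdkn2c had the largest rise. Each sequence holds the 250 bases before an annotated transcript start, 5′ to 3′ on the gene's strand, from RefSeq (GRCm38.p6). Capitals mark matches to the motifs searched on both strands. These were AGATAA for GATA factors, CCACACCC for KLF factors, TTTCGCGC, TTTGGCGC or TTTCCCGC for E2F factors, CACGTG for E-box factors and TTCNNNGAA for STAT factors.
Cdk4, chr10:127063285-127063534, plus strand: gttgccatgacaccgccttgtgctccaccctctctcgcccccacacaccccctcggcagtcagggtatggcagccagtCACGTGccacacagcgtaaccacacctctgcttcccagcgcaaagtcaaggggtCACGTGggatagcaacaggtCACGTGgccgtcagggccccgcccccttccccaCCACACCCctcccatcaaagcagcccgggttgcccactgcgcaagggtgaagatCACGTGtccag
Cdk6, chr5:3343643-3343892, plus strand: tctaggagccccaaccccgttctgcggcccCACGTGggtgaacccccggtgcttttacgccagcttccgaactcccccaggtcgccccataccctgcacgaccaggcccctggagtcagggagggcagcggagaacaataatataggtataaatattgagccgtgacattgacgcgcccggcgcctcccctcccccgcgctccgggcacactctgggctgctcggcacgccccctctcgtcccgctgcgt
Cdkn2c, chr4:109666757-109667006, minus strand: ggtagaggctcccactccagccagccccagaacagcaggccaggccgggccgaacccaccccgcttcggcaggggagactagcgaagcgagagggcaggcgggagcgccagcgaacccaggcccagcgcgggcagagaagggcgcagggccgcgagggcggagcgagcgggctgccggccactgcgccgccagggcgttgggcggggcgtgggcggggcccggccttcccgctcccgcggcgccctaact

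The Cdk4 window holds CACGTG in 4 places, which begin 172, 118, 98 and 11 bases before the start, and 1 CCACACCC that begins 65 bases before it. The Cdk6 window holds 1 CACGTG, which begins 220 bases before the start. CACGTG reads the same on both strands and is counted once per place. The 2 kinds of match do not overlap. Of 32851 promoter windows of the same length, 6.02% hold CACGTG and 3.2% hold CCACACCC. None of the motifs was found in the windows of Cdkn2c, Cdkn1a, Cdkn1b or Ccnd3, which says only that these letters are not there. GATA motifs were in 9.99% of all windows, STAT motifs in 7.02% and E2F motifs in 1.53%. Windows for Ccnd1, Ccnd2 and Cdkn1c were not used here.

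Values below are normalized counts, which are counts scaled by TMM (a trimmed mean that sets libraries to a common level) to the mean effective library size. Changes are log2 fold changes of edgeR's quasi-likelihood test. The standard error (SE) given with them is an approximation, the size of the change divided by the square root of the test's F statistic. A gene is called at a Benjamini-Hochberg adjusted p under 0.05 over all genes tested. Across all 16555 genes tested, the median log2 fold change between S3 and S0-Low was -0.54 with TMM and -1.36 with library totals, so changes in S3 are to be read against that shift.

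**Figure D1:**
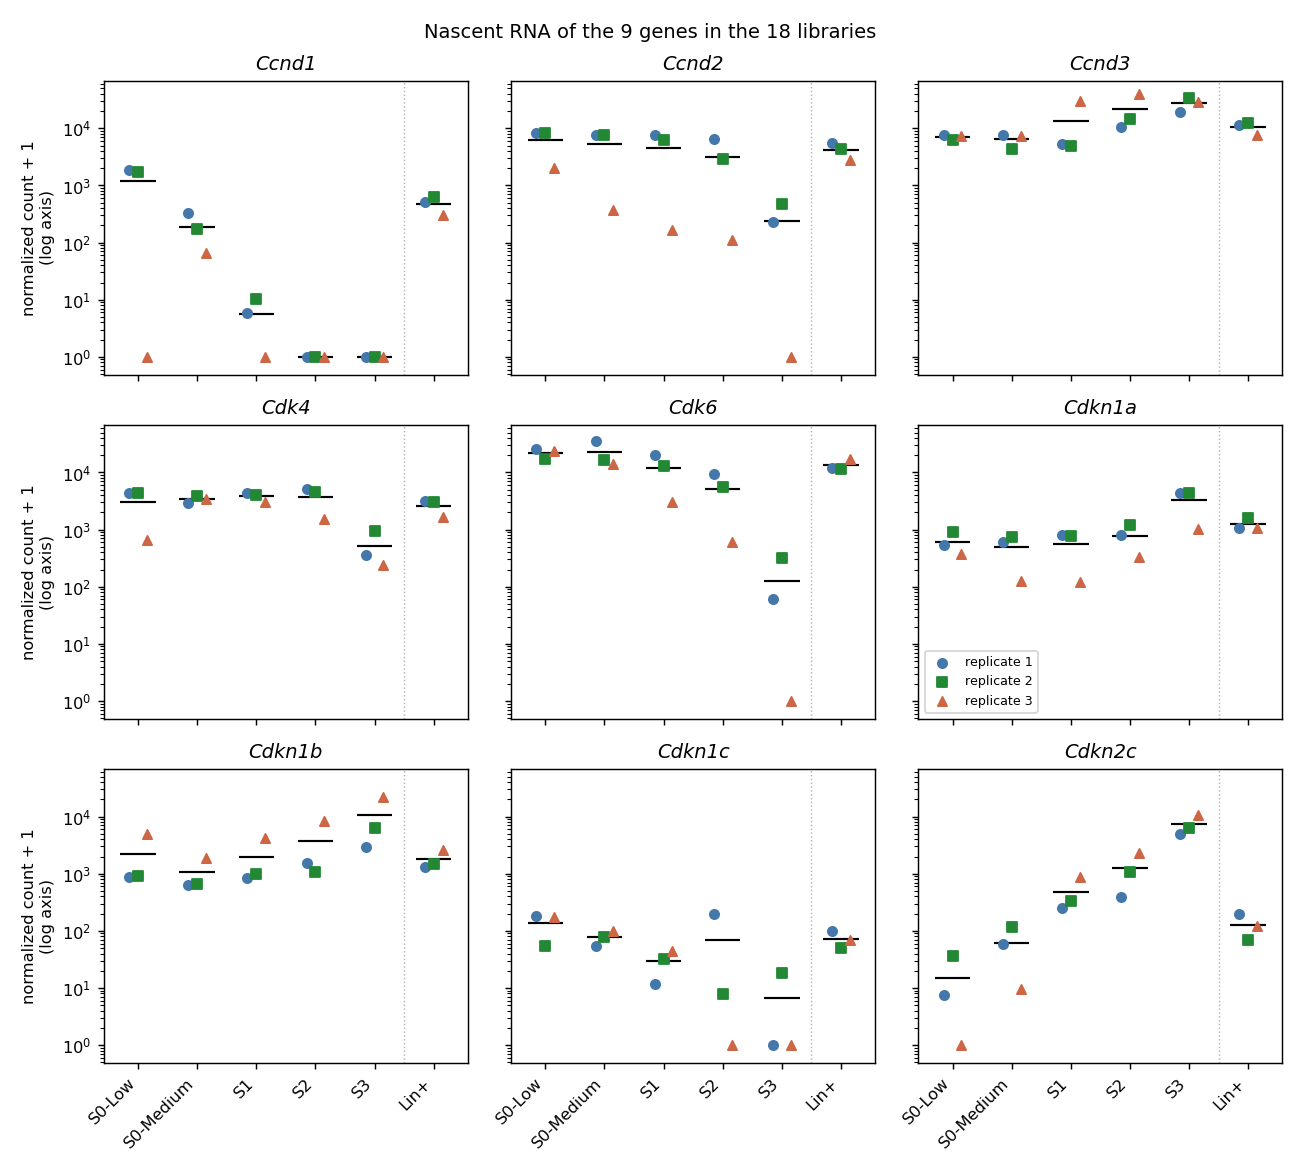
Normalized counts plus 1 (log axis) of each of the 9 genes in the 5 erythroid populations and, right of the dotted line, Lin+. Points are libraries, coloured and shaped by replicate number, and bars are means of 3. Ccnd1 ends at 0 in S2 and S3, Cdk6 falls from a mean of 22300 in S0-Low to 124 in S3, and Cdkn2c rises from 14.2 to 7311.

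From S0-Low to S3 the D cyclins parted. Ccnd1 and Ccnd2 fell, Ccnd3 rose, both kinases fell, and the inhibitors Cdkn2c and Cdkn1a rose. The test called 3 of the 9 genes higher in S3 (Ccnd3, Cdkn1a and Cdkn2c) and 4 lower (Ccnd1, Ccnd2, Cdk4 and Cdk6), where 13.4% of all genes tested were called higher and 22.4% lower. Libraries did not overlap for 3 members that were higher and 3 that were lower, and for 16.6% and 25.9% of all genes. The median log2 fold change of the 9 genes was -2.58, and that of all genes -0.54. With library totals the calls were 1 higher and 5 lower, against 6.98% and 37.6% of all genes. The share of all called genes that were lower then moved from 62.6% to 84.3%. No sign changed among the 9 genes. Measured from the median of all genes, Ccnd3 was higher by 2.50 on the log2 scale with TMM and by 2.47 with library totals, and Cdk6 lay at -6.93 and -6.90.

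**Figure D2:**
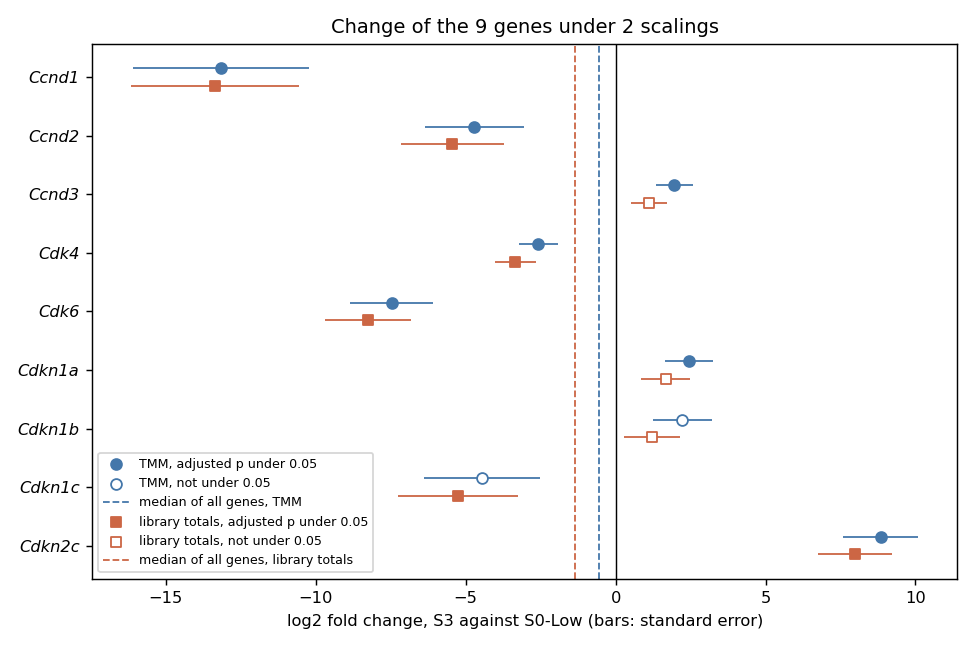
Log2 fold change of each gene in S3 against S0-Low with its standard error, with TMM scaling (blue circles) and with library totals (orange squares). Filled points have an adjusted p under 0.05, and dashed lines are the medians of all genes, -0.54 and -1.36. The fitted value of Ccnd1 rests on S3 libraries that are all at 0 and depends on the fit's prior count.

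Ccnd1 (chr7:144929931-144939831, GRCm38) encodes cyclin D1, which growth factor signals induce in many cell types. It measured 1894, 1734 and 0 normalized counts in the S0-Low libraries, and 329, 174 and 64.8 in S0-Medium. In S1 it was at 4.88, 9.18 and 0, and all 6 libraries of S2 and S3 held 0 counts. The S0-Low libraries disagreed, with replicate 3 at 0 although a floor of 3 counts there is 7.97 normalized counts, so S0-Low overlaps S3. The mean of S0-Low was at least 212-fold higher than a floor of 3 counts in each S3 library, and the difference was called (adjusted p = 0.00519, and 0.000137 without replicate 3). The S0-Medium and S1 libraries did not overlap, and the fold change of -5.28 ± 1.88 (SE) on the log2 scale between them was not called (adjusted p = 0.53).

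Markers of other cells also differed between the populations. The 6 stem and progenitor markers summed to between 31540 and 44450 normalized counts in S0-Low, between 5561 and 8884 in S1 and between 44.1 and 343 in S3, where Cd34 and Hlf were at or under 3 counts. The 5 macrophage markers summed to between 944 and 1448 in S0-Low, 145 and 859 in S0-Medium, 11.4 and 37.4 in S1, 1.47 and 5.42 in S2 and 1.84 and 4.84 in S3. The 5 lymphoid markers were between 2916 and 5416, 207 and 1745, 23.4 and 31.7, 0 and 5.96, and 0 and 10.1 in the same order, and the 6 neutrophil markers between 10860 and 25450, 367 and 5591, 20.3 and 48.8, 0 and 11.1, and 0 and 40.4. Each of these 3 sets summed to at most 48.8 normalized counts in every library from S1 on. The 5 megakaryocyte markers overlapped between S0-Low (1041 to 4551) and S3 (586 to 2771), with between 2435 and 4507 in S0-Medium, 486 and 1210 in S1 and 435 and 732 in S2. Over the 5 endothelial markers the summed level was between 2578 and 8394 for S0-Low, 742 and 2160 for S0-Medium and 128 and 449 for S1, and was between 4.06 and 75.8 for S2. It was between 255 and 404 in S3, where Cdh5, Tek and Esam were at or under 3 counts. The 5 hepatoblast markers summed to between 468 and 752 in S0-Low and to 0 in S3. Within S0-Low the endothelial markers were highest in replicate 3, at 8394 against 3223 and 2578. The part of these cells in the values of Ccnd1, Ccnd2 and Cdk6 was not tested.

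Ccnd2 (chr6:127125162-127152188) encodes cyclin D2, which is prominent in blood progenitors. It measured 8187, 8207 and 2032 in S0-Low, 7695, 7785 and 377 in S0-Medium, and 7514, 6153 and 162 in S1. In S2 it stood at 6389, 2900 and 109, and in S3 at 225, 479 and 0. Replicates 1 and 2 stayed at 2900 or above through S2, while replicate 3 was already at 377 in S0-Medium. The S3 libraries lay below all S0-Low libraries, with a log2 fold change of -4.71 ± 1.66 (SE, adjusted p = 0.0379). Without replicate 3 the change was -4.53 (adjusted p = 8.05e-05). The call was lost without S0-Low replicate 1 or 2 or S3 replicate 1 or 3, at values from -4.69 to -4.14. It was kept without S3 replicate 2, at -5.79 (adjusted p = 0.0491).

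Ccnd3 (chr17:47505051-47599689) encodes cyclin D3 and was the D cyclin with the highest level in each population per kb of exon. It measured 7567, 6250 and 7377 in S0-Low, and 7686, 4439 and 7320 in S0-Medium. Replicate 3 then rose before the others, with 5417, 4923 and 29790 in S1 and 10570, 14640 and 39350 in S2. In S3 the libraries were at 19670, 33960 and 29170, and all 3 were above every S0-Low library. The log2 fold change between S3 and S0-Low was 1.96 ± 0.62 (SE, adjusted p = 0.0234), a rise of 3.91-fold in the means. It was 1.96 without replicate 3 (adjusted p = 0.00196) and 1.11 with library totals (adjusted p = 0.139), so the call rests on the scaling. Leaving out any S0-Low library, or S3 replicate 2, also lost it, at 1.79 to 1.95.

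Per kb of exon, the D cyclin transcripts became almost wholly those of Ccnd3. Its share of the summed D cyclin level was 63.5%, 59.4% and 90.2% in the S0-Low libraries and 99.5%, 99.5% and 100% in S3. The means were 71.0% ± 16.7 (SD, n = 3) at S0-Low, 75.4% ± 20.1 at S0-Medium and 77.1% ± 19.7 at S1, and then 91.1% ± 9.69 at S2 and 99.7% ± 0.293 at S3. Replicate 3 was at 97.5% in S0-Medium, where the others were at 70.4% and 58.2%. Ccnd2 made up 22.6% ± 11.2 in S0-Low and 0.335% ± 0.295 in S3, and Ccnd1 6.35% ± 5.5 and 0%. In Lin+ the share of Ccnd3 was 84.3% ± 2.12. Without division by length, Ccnd3 had 53.3% in S0-Low (42.9%, 38.6% and 78.4%), 99.2% in S3 and 69.1% in Lin+. On that scale Ccnd2 had the largest share in replicates 1 and 2 of S0-Low (46.4% and 50.7%), S0-Medium (49.0% and 62.8%) and S1 (58.1% and 55.5%). A share does not depend on how the libraries were scaled.

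**Figure D3:**
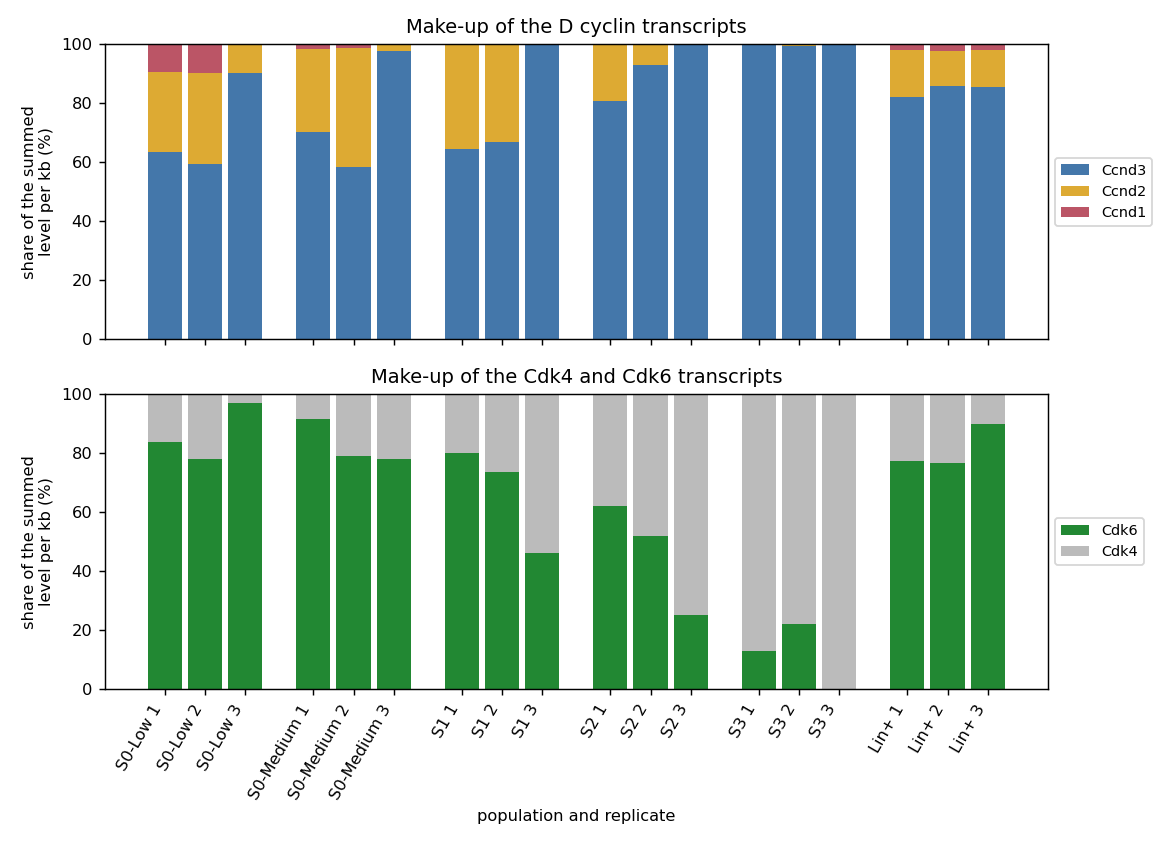
Share (%) of each gene in the summed level per kb of the D cyclins (top) and of Cdk4 and Cdk6 (bottom) in each of the 18 libraries. Ccnd3 fills 99.5% or more of the D cyclin bars in S3, and Cdk6 goes from a mean of 86.2% in S0-Low to 11.6% in S3.

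Both kinase genes were transcribed through S2 and were low in S3. Cdk4 (chr10:127063535-127067288) measured 4339, 4301 and 667 in S0-Low, 2928, 3853 and 3489 in S0-Medium, and 4418, 4012 and 3072 in S1. It was at 5046, 4478 and 1531 in S2 and at 354, 962 and 241 in S3. All 3 S3 libraries lay below every S1 and S2 library, whereas S0-Low overlapped S3 through its replicate 3. The log2 fold change of S3 was -2.58 ± 0.65 (SE, adjusted p = 0.00687) against S0-Low, -2.88 ± 0.66 (adjusted p = 0.00714) against S1 and -2.82 ± 0.66 (adjusted p = 0.0149) against S2. These 3 comparisons share the S3 libraries. Over 14 alternatives each, the change ran from -3.39 to -2.25 against S0-Low, -3.69 to -2.57 against S1 and -3.63 to -2.50 against S2.

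Cdk4 overlaps Tspan31 on the opposite strand, and Tspan31 also fell, from a mean of 892 in S0-Low to 78.4 in S3 (log2 fold change -3.49, adjusted p = 0.00762). The libraries kept strand, but whether the counting used it is not given in the sources used here, so reads of the shared stretch may not be told apart. The other overlapping partners with a value, Oraov1 for Ccnd1 and Bysl for Ccnd3, changed by 0.23 (adjusted p = 0.7) and 0.10 (adjusted p = 0.924) between S0-Low and S3, unlike the cyclins. The stretches of 31 bases that Cdk4 and Cdk6 share with other genes were 1.47% and 2.0% of all of theirs.

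Cdk6 (chr5:3341004-3531008) had means of 22300 in S0-Low and 22390 in S0-Medium, and was called lower in S3. It measured 25870, 17510 and 23530 in S0-Low, 36230, 16730 and 14190 in S0-Medium and 20280, 12770 and 3039 in S1. The values were 9476, 5590 and 594 in S2 and 60.5, 311 and 0 in S3. Every replicate number went down at each step from S0-Medium on, and S3 did not overlap S2. The log2 fold change of S3 was -7.47 ± 1.38 (SE, adjusted p = 0.000826) against S0-Low. Over its 13 alternatives it ran from -9.58, without S3 replicate 2, to -6.83, without replicate 3 of every population, and was called in all 13 (highest adjusted p = 0.00654). It was -6.57 ± 1.33 (adjusted p = 0.00331) against S1 and -5.37 ± 1.26 (adjusted p = 0.0153) against S2. Leaving out S3 replicate 2 moved these to -8.69 and -7.49, and the other ends of their ranges were -5.96 without S1 replicate 1 and -4.63 without S2 replicate 1. The steps from S0-Medium to S1 and from S1 to S2 were -0.90 ± 1.04 and -1.20 ± 1.05 and were not called (adjusted p = 1.0 for both).

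The mix of the 2 kinase transcripts changed along the series. Per kb, Cdk6 made up 83.8%, 78.0% and 96.8% of their sum in the S0-Low libraries, 62.0%, 52.1% and 25.2% in S2, and 13.0%, 22.0% and 0% in S3. The mean was 86.2% ± 9.65 (SD, n = 3) at S0-Low, 82.8% ± 7.52 at S0-Medium and 66.6% ± 17.9 at S1, and went to 46.4% ± 19.0 at S2 and 11.6% at S3. Lin+ was at 81.3% ± 7.43. The libraries of S3 did not overlap those of any other population.

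Among the CIP/KIP inhibitors, Cdkn1a (chr17:29090979-29100722), a p53 target that encodes p21, had means between 489 and 786 through S2 and was higher in S3. It measured 537, 890 and 377 in S0-Low, 594, 746 and 127 in S0-Medium, and 804, 779 and 121 in S1. It stood at 818, 1210 and 330 in S2 and at 4406, 4368 and 1044 in S3. Replicate 3 was the lowest in each, yet its S3 library lay above all S0-Low libraries. The log2 fold change between S3 and S0-Low was 2.44 ± 0.80 (SE, adjusted p = 0.0279), 2.62 without replicate 3 (adjusted p = 0.000459) and 1.67 with library totals (adjusted p = 0.103). Leaving out S0-Low replicate 1 or 3, or S3 replicate 1 or 2, lost the call, at 2.13 to 2.29.

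Cdkn1b (chr6:134920401-134925525) encodes p27, an inhibitor that builds up as many cell types stop dividing. It measured 872, 922 and 4962 in S0-Low, 631, 667 and 1869 in S0-Medium and 854, 969 and 4159 in S1. The levels were 1541, 1088 and 8380 in S2 and 2894, 6303 and 22410 in S3. Within each replicate number S3 was the highest of the 5 populations, but replicate 3 of S0-Low was above replicate 1 of S3, so the groups overlap. The log2 fold change of 2.23 ± 0.97 (SE) was not called (adjusted p = 0.0825). It was called at 2.16 with no filter (adjusted p = 0.000447), at 2.36 without replicate 3 (adjusted p = 0.00137) and at 3.52 without S0-Low replicate 3 alone (adjusted p = 0.0287). A block for the replicate number called it at 2.27 (adjusted p = 5.45e-05), though deviations of same-numbered S3 and S0-Low libraries correlated only at 0.0352 to 0.0956. The change was 1.21 with library totals (adjusted p = 0.299) and 1.02 without S3 replicate 3 (adjusted p = 0.429), the lowest of its alternatives.

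Cdkn1c (chr7:143458339-143461059), an imprinted gene for p57 that is known for keeping stem cells quiet, was the least transcribed of the CIP/KIP genes. It measured 178, 53.4 and 173 in S0-Low and 0, 17.3 and 0 in S3, with between 54.1 and 99.5 in S0-Medium, 10.6 and 43.8 in S1 and 0 and 198 in S2. All S3 libraries lay below all S0-Low libraries, at a log2 fold change of -4.45 ± 1.94 (SE) that was not called (adjusted p = 0.0819). It was called by DESeq2 (-4.75, adjusted p = 0.00894), with library totals (-5.25, adjusted p = 0.0433) and at -10.02 without S3 replicate 2 (adjusted p = 0.0265), which leaves S3 libraries at 0.

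Cdkn2c (chr4:109660876-109666756), the gene of the INK4 inhibitor p18, had the largest rise of the 9 genes. It measured 6.61, 35.9 and 0 in S0-Low, 58.5, 116 and 8.45 in S0-Medium, and 246, 331 and 881 in S1. It went on to 390, 1058 and 2282 in S2 and 5014, 6261 and 10660 in S3. All 3 replicate numbers went up at each of the 4 steps, with no overlap between S0-Medium and S1 or between S2 and S3. The log2 fold change between S3 and S0-Low was 8.84 ± 1.25 (SE, adjusted p = 0.000103), and 7.98 to 10.6 over the 13 alternatives, all of them called. The S0-Low counts behind it are few, with 8, 45 and 0 reads in the 3 libraries.

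In the first 3 steps of the series none of the 9 genes was called in either direction by edgeR with its filter, and 0.0% of all genes tested were. At an unadjusted p under 0.05 the count was 0 from S0-Low to S0-Medium, 1 higher (Cdkn2c) and 1 lower (Ccnd1) from S0-Medium to S1, and 0 from S1 to S2. Over all genes those counts were 295 higher and 244 lower, 278 and 857, and 166 and 501. With no filter, edgeR called Cdkn2c higher (2.97, adjusted p = 0.000527) and Ccnd1 lower (-5.29, adjusted p = 0.00673) from S0-Medium to S1. DESeq2 called 0 of the 9 in each step, and it called 28 genes higher and 19 lower, 33 and 368, and 6 and 141 over all genes. From S0-Medium to S1 the libraries of 1 member that was higher (Cdkn2c) and 2 that were lower (Ccnd1 and Cdkn1c) did not overlap, where 6.96% and 10.2% of all genes did not. The log2 fold changes of Cdkn2c in the 3 steps were 1.94 ± 0.97, 2.98 ± 0.95 and 1.35 ± 0.89 (SE). Over the alternatives they ran from 1.09 to 3.72, 1.72 to 3.77 and 0.58 to 2.11. The replicate block changed no call of a member in these steps.

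The last step, from S2 to S3, held the calls for the kinases. Cdk4 and Cdk6 were called lower, 0 of the 9 genes were called higher, and 3.26% of all genes were called higher and 6.09% lower. Without overlap, 1 was higher (Cdkn2c) and the 2 kinases were lower, against 8.99% and 14.2% of all genes. At an unadjusted p under 0.05, 2 were higher (Cdkn1a and Cdkn2c) and 3 lower, and DESeq2 called the same numbers. Libraries with the same replicate number deviated together here, and with the replicate as a block 3 were called higher and 3 lower. These added Cdkn1a at 1.98 (adjusted p = 0.00428), Cdkn1b at 1.64 (adjusted p = 0.00191) and Cdkn2c at 2.73 (adjusted p = 0.035) to the rises. Ccnd2 joined the falls at -3.69 (adjusted p = 0.00444). Without replicate 3 of every population the counts were 3 higher (Cdkn1a, Cdkn1b and Cdkn2c) and 3 lower (Ccnd2, Cdk4 and Cdk6) as well. Ccnd3 changed by 0.37 ± 0.60 (SE, adjusted p = 0.739), and by -0.11 with library totals. With only the 6 libraries compared neither kinase was called (adjusted p = 0.0829 for Cdk4 and 0.132 for Cdk6), nor without S3 replicate 1 (adjusted p = 0.0519 and 0.0542). Without S2 replicate 1 or S3 replicate 3 the Cdk4 call was lost (adjusted p = 0.0547 and 0.0579).

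Between S1 and S3, Cdkn1a and Cdkn2c were called higher and Cdk4 and Cdk6 lower, where 7.21% and 12.1% of all genes were. The libraries of these 4 did not overlap, as for 13.6% of all genes that were higher and 27.5% that were lower. Cdkn1a changed by 2.53 ± 0.80 (SE, adjusted p = 0.0385) and Cdkn2c by 3.92 ± 0.99 (adjusted p = 0.0124). With the replicate block 4 were higher and 3 lower, as Ccnd3 came in at 1.45 (adjusted p = 0.04), Cdkn1b at 2.35 (adjusted p = 7.48e-05) and Ccnd2 at -4.26 (adjusted p = 0.0011). S1 replicate 3 decided the size for Ccnd3, whose change was 1.05 with it and 2.41 without it (adjusted p = 0.00554). Without S1 replicate 3, Ccnd2 was called at -4.87 (adjusted p = 0.0423) and Cdkn1b at 3.52 (adjusted p = 0.0436). DESeq2 (-4.33, adjusted p = 0.012), library totals (-4.83, adjusted p = 0.0427) and no filter (-4.33, adjusted p = 1.56e-07) also called Ccnd2 lower, which edgeR with its filter and all libraries did not. Cdkn1b was likewise called by DESeq2 (2.50, adjusted p = 0.0369) and with no filter (2.35, adjusted p = 0.000215). It was not called by edgeR with its filter and all libraries (2.41, adjusted p = 0.0931), with library totals (1.61, adjusted p = 0.204) or without S3 replicate 3 (1.18, adjusted p = 0.434). Without replicate 3 of every population, Ccnd3 and Cdkn1b were called higher too, and Ccnd2 and Ccnd1 lower (-5.92 for Ccnd1, adjusted p = 0.0287), for 4 in each direction. Cdkn1a lost its call without any 1 of S1 replicates 1, 2 or 3 or S3 replicates 1 or 2, at 2.04 to 2.87, with library totals (1.98, adjusted p = 0.0813) and with only the 6 libraries compared (2.44, adjusted p = 0.0764). Cdkn2c lost it without S1 replicate 1 (3.62, adjusted p = 0.0576) or 2 (3.69, adjusted p = 0.0603).

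The order of the populations differed between members. For Cdk6 it ran S0-Medium, S0-Low, Lin+, S1, S2, S3, with no overlap of libraries between S0-Low and Lin+ or between S2 and S3. For Cdkn2c it ran S3, S2, S1, Lin+, S0-Medium, S0-Low, with no overlap between S3 and S2 or between S1 and Lin+. For Ccnd3 it was S3, S2, S1, Lin+, S0-Low, S0-Medium, and only Lin+ and S0-Low did not overlap among neighbours. For Cdk4 the first 5 (S1, S2, S0-Medium, S0-Low, Lin+) all overlapped their neighbour, and S3 came last with no overlap. For Ccnd1 it was S0-Low, Lin+, S0-Medium, S1, then S2 and S3 at 0, with no overlap between S0-Medium and S1. Neighbours overlapped throughout for Ccnd2, Cdkn1a, Cdkn1b and Cdkn1c.

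Lin+ cells were compared with both ends of the erythroid series. Between Lin+ and S0-Low, edgeR with its filter called 0 of the 9 genes, with 0.496% of all 17755 genes called higher and 0.22% lower. At an unadjusted p under 0.05 the count was 1, Cdkn2c, with a log2 fold change of 3.00 ± 0.97 (SE, adjusted p = 0.201), which DESeq2 called (adjusted p = 0.026), as did edgeR with no filter (3.07, adjusted p = 0.00872). Over 13 alternatives the Cdkn2c change ran from 2.55 to 4.81. The Lin+ libraries held 193, 67.6 and 121 normalized counts of Cdkn2c, all above the S0-Low libraries. Ccnd3, Cdkn1a and Cdkn2c were higher without overlap and Cdk6 lower, where 15.7% and 6.96% of all genes did not overlap. The Ccnd1 levels of 520, 616 and 304 in Lin+ lay between the S0-Low libraries, as its replicate 3 was at 0.

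Against S3, Lin+ was called higher for Ccnd1, Ccnd2, Cdk4 and Cdk6 and lower for Cdkn1b and Cdkn2c, where 28.2% of all genes were higher and 14.1% lower. Libraries did not overlap for 5 higher and 3 lower members, and for 36.8% and 17.3% of all genes. Cdk6 measured 12210, 11570 and 17270 in Lin+, a log2 fold change of 6.76 ± 1.26 (SE, adjusted p = 0.000417) against S3. Over its 13 alternatives the change was 5.97 to 8.97 and was called in all 13. Cdkn2c differed by -5.85 ± 1.06 (adjusted p = 0.000317) and Cdk4 by 2.33 ± 0.62 (adjusted p = 0.0065). Ccnd1 was at least 84.2-fold higher in Lin+ than a floor of 3 counts in each S3 library. Ccnd2 differed by 4.18 ± 1.53 (adjusted p = 0.0364) and was not called without S3 replicate 1 or 3 or Lin+ replicate 1 or 2, at 3.59 to 4.17. Cdkn1b differed by -2.55 ± 0.94 (adjusted p = 0.037). That fell to -1.35 without S3 replicate 3 (adjusted p = 0.259), and the call was also lost without any 1 Lin+ library and with library totals (-1.62, adjusted p = 0.145). Without replicate 3 of every population, Ccnd3 (-1.17, adjusted p = 0.0127) and Cdkn1a (-1.69, adjusted p = 0.00415) were called lower as well. This comparison shares the S3 libraries with those above. The Lin+ libraries also had the highest summed macrophage, neutrophil, megakaryocyte and lymphoid markers of the 6 populations. Their stem and progenitor markers summed to between 31780 and 46550, against 31540 to 44450 in S0-Low and 44.1 to 343 in S3. Their endothelial markers summed to between 5666 and 10010, against 255 to 404 in S3. The part of each cell type in these values was not tested.

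Other genes of the pathway moved in both directions. Of the 3 pocket proteins, the substrates of cyclin D with CDK4 and CDK6, Rb1 and Rbl1 were called higher in S3 and 0 lower, with S0-Low as the base, where 13.4% of all genes were called higher and 22.4% lower. The log2 fold changes were 2.91 ± 0.56 (SE, adjusted p = 0.00107) for Rb1 and 1.63 ± 0.35 (adjusted p = 0.00248) for Rbl1, and Rbl2 changed by -0.20 (adjusted p = 0.693). With library totals Rb1 was called at 2.00 (adjusted p = 0.00692), Rbl1 lost its call at 0.76 and Rbl2 was called lower at -1.05 (adjusted p = 0.0457). The median of the 3 was 1.63, against -0.54 for all genes.

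Of 11 other cyclins, kinases and inhibitors of the G1/S transition, 10 were tested, 4 rose and 1 fell in S3 against S0-Low, where 13.4% of all genes were called higher and 22.4% lower. The list median was 1.16, and that of all genes -0.54. The cyclins that partner CDK2 rose, with Ccna2 at 3.18 ± 0.39 (SE, adjusted p = 3.28e-05), Ccne2 at 3.02 ± 0.47 (adjusted p = 0.000219) and Ccne1 at 2.50 ± 0.51 (adjusted p = 0.00164). Cdkn3, a phosphatase that acts on CDK2, rose by 3.47 ± 0.62 (adjusted p = 0.000684). Ccna2 went from between 4630 and 6390 normalized counts in S0-Low to between 29000 and 71600 in S3, and all 4 rises were also called with library totals. Cdk2 itself changed by -0.29 (adjusted p = 0.55), Cdc25a, which activates it, by -0.33 (adjusted p = 0.41), and Cdk7 by -0.05 (adjusted p = 0.917). Ccnh, the cyclin of CDK7, fell by 1.08 on the log2 scale (adjusted p = 0.0421). With library totals Cdk2 at -1.18 and Cdc25a at -1.15 were called lower too, and without replicate 3 of every population Ccnh was not called (-0.99, adjusted p = 0.0986) and Mnat1, which assembles CDK7 with its cyclin, was called higher (1.25, adjusted p = 0.0366, against 0.77 and 0.186 with all libraries), for 5 higher and 0 lower. Cdkn2a was not tested, as its counts were too low.

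Of 9 genes for proteins that degrade or bind D cyclins and CDK inhibitors, 2 rose and 2 fell, shares near the 13.4% of all genes called higher and the 22.4% called lower. The list median was 0.57, and that of all genes -0.54. Rnf123, a ubiquitin ligase that acts on p27, rose by 4.63 ± 0.52 (SE, adjusted p = 1.85e-05), from a mean of 1582 in S0-Low to 39340 in S3. Ccndbp1, which binds cyclin D1, rose by 1.76 ± 0.44 (adjusted p = 0.00673), and by 0.89 with library totals (adjusted p = 0.12). Fbxo31, an F-box protein for cyclin D1, fell by 2.48 on the log2 scale (adjusted p = 0.0442), and Cdc37, a chaperone partner that loads CDK4 onto HSP90, fell by 1.14 (adjusted p = 0.0431). Without replicate 3 of every population Fbxo31 was not called (-3.11, adjusted p = 0.067). Skp2, the F-box protein that marks p27 for degradation, changed by 0.51 (adjusted p = 0.322) and its cofactor Cks1b by 0.89 (adjusted p = 0.119).

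Of 12 p53 targets other than Cdkn1a, 4 rose and 0 fell in S3 against S0-Low, where 13.4% of all genes were called higher and 22.4% lower. The list median was 1.21, and that of all genes -0.54. Btg2, which restrains growth, rose by 5.24 ± 1.04 (SE, adjusted p = 0.00136), and Sesn2, a stress-response gene, by 4.73 ± 0.75 (adjusted p = 0.000251). Bbc3, a pro-death BCL2 family gene, rose by 2.60 ± 0.92 (adjusted p = 0.0383), and Mdm2, the ligase that degrades p53, by 1.37 ± 0.29 (adjusted p = 0.00203). With library totals only Btg2 and Sesn2 of the 12 were called. Pmaip1 at 0.01, Bax at 0.75 and Phlda3 at -0.20 were not called (adjusted p = 0.994, 0.609 and 0.923). Without replicate 3 of every population, 6 of the 12 were called higher and 1, Aen, lower (-0.90, adjusted p = 0.0373).

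**Figure D4:**
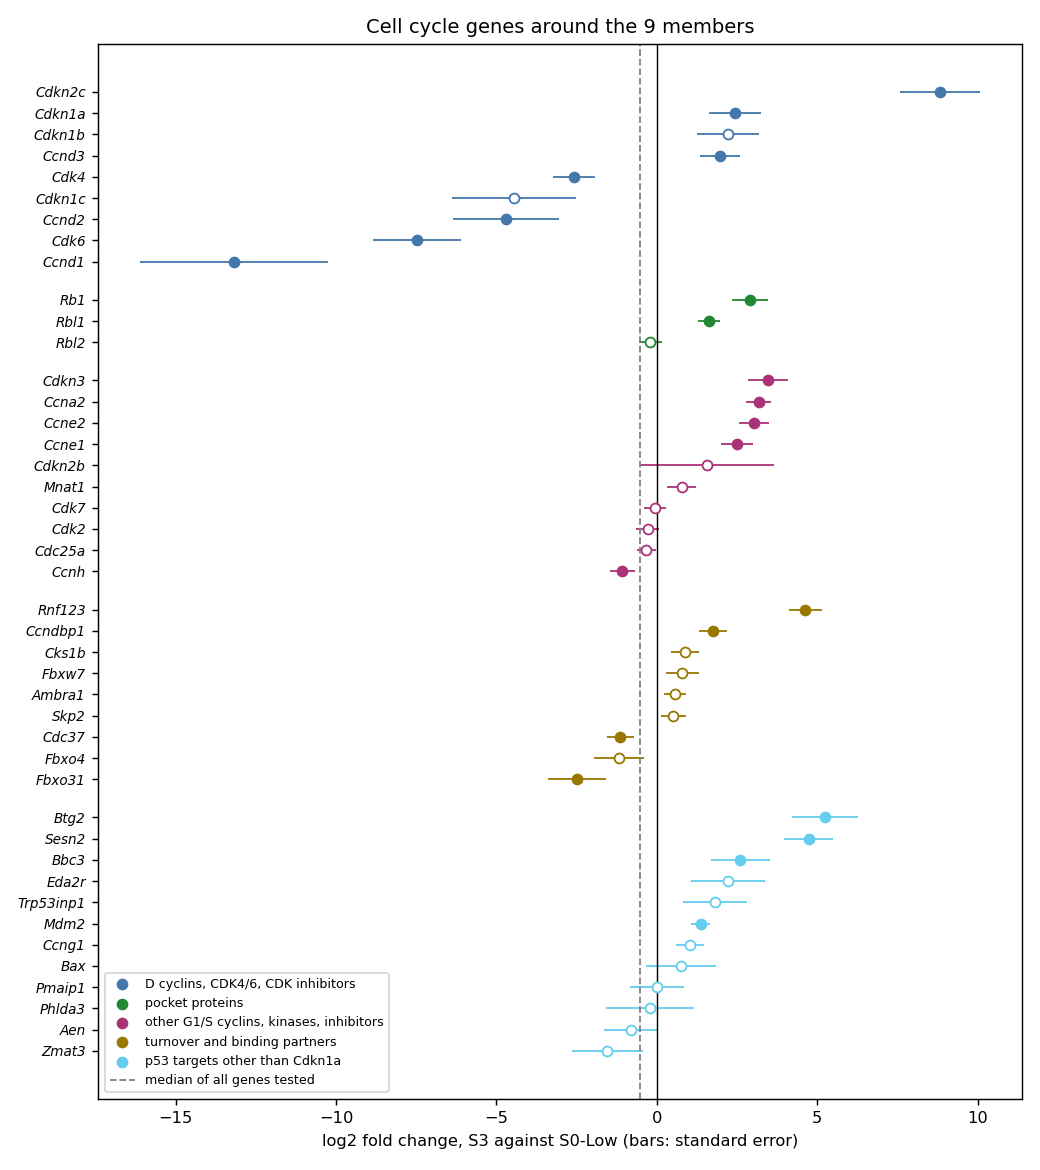
Log2 fold change of S3 against S0-Low with its standard error (TMM scaling) for the 9 genes and 4 lists around them. Filled points have an adjusted p under 0.05, and the dashed line is the median of all genes, -0.54. Rises of Rb1 at 2.91, Ccna2 at 3.18 and Rnf123 at 4.63 stand beside falls of Ccnd1, Ccnd2, Cdk4 and Cdk6.

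The genes whose log2(CPM + 0.5) was most like each member's over the 18 libraries, by Pearson's r among 12087 genes that reach the same minimum, were as follows. The libraries share populations and replicate numbers, so r is a description. Cdk6 was most like Mtap7 (r = 0.985) and Foxp4 (0.98), and Ccnd2 most like Cyb5b (0.983) and Mtdh (0.958). Cdk4 was most like Wdr18 (0.977) and Tmem147 (0.964), and Ccnd1 most like H1fx (0.971) and AI661453 (0.966). Cdkn1b was most like Rb1cc1 (0.971) and Kdm3a (0.966), and Cdkn2c most like Itsn1 (0.968) and F930017D23Rik (0.965). For Ccnd3 the values were lower, with Micall2 at 0.911 and Gpr146 at 0.909. So were those of Cdkn1a, with Havcr2 and Fhl1 both at 0.896, and of Cdkn1c, with Tsta3 at 0.872 and As3mt at 0.862. With library totals the partners were different for 4 members. Cdk4 was then most like Fem1a (0.985) and Cdkn1a most like Tnfrsf21 (0.869), and the second gene was Ywhag for Ccnd2 (0.962) and Jak2 for Cdkn1b (0.954). Between members, r was 0.86 for Ccnd2 and Cdk6, -0.89 for Ccnd2 and Cdkn1b and -0.79 for Ccnd2 and Ccnd3.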

How the data were processed

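Nascent RNA of 18 libraries (3 of each of 6 populations) was used, with populations and replicate numbers taken from the labels. The authors quantified the reads with kallisto 0.43.0 (GRCm38 in the submitters' processing notes) and deposited whole-number counts per gene, not normalized and not pooled. The transcript set, and whether introns or strand were used in counting, are not given in the sources used here. Kallisto splits reads that fit several transcripts, and no molecular identifiers were used, and the floors of 3 counts allow for neither. The SDs and SEs reflect the spread between libraries.

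Of 54232 identifiers, 32651 have a symbol. All members, gene lists, markers and motifs were chosen with earlier results of these data known. Counts were tested in edgeR 4.0.16 (R 4.3.3) with TMM factors, filterByExpr and the two-sided quasi-likelihood test, with population as the only term. The 15 erythroid libraries gave 16555 genes with a common biological coefficient of variation of 0.795, and all 18 gave 17755 genes at 0.771 for comparisons with Lin+. The step was tested on simulated data. Levels per kb use exon lengths of GENCODE M1, and coordinates are RefSeq's. Python 3.11.15 with pandas 2.3.3, numpy 2.4.6 and matplotlib 3.10.9 did the rest.

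The genes named are the 10 members, 4 lists of related genes, and the 2 genes most like each member that reaches 100 normalized counts. Alternatives were DESeq2 1.42.0, RLE factors, library totals, no filter, at least 10 counts in every compared library, the replicate block, only the 6 libraries compared, each library left out, and, added after seeing the data, replicates 1 and 2 of every population only. The replicate numbers were taken to pair libraries where the deviations of every same-numbered pair correlated at over 0.1. That held for the 3 first steps, S3 against S2 (r from 0.111 to 0.214) and S3 against S1 (0.132 to 0.2), but not for S3 against S0-Low (0.0352 to 0.0956) or the comparisons with Lin+ (0.0755 to 0.138). The study calls the libraries biological replicates. Whether they came from separate litters or cultures is not given in the sources used here, so p-values measure only the spread between these samples.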

Additional observations from a re-analysis of the deposited data

How the results depend on the processing

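Alternatives other than leaving out 1 library, among them the 6 libraries alone and replicates 1 and 2 only, gave 373 values of single genes. Of these, 318 kept their direction and side of the threshold, 9 lost and 42 gained a call, and 4 changed sign. Over the 300 that leave out 1 library, 259 were kept, 31 lost and 6 gained a call, and 4 changed sign. The cause was not tested. Against S0-Low, S3 had 3 of the 9 genes higher and 4 lower. That became 1 higher with library totals, and 1 lower with the filter of 10 counts in each compared library, which drops genes at 0 in one. It also became 5 lower with DESeq2 and with library totals, 3 lower with the 6 libraries alone, 2 higher with the 10-count filter, and 4 higher with no filter, the replicate block, and replicates 1 and 2 only. Leaving out 1 library gave 1 to 3 higher and 3 to 5 lower. Against S2 (0 higher, 2 lower), DESeq2 gave 2 higher, and no filter, the replicate block, and replicates 1 and 2 only gave 3 higher each, and all 4 of these gave 3 lower. The 10-count filter gave 1 lower, the 6 libraries alone 0 lower, and leaving out 1 library 0 to 2 lower. Against S1 (2 higher, 2 lower), library totals and the 6 libraries alone gave 1 higher, the replicate block and replicates 1 and 2 only 4 higher, the 10-count filter 1 lower, and replicates 1 and 2 only 4 lower. DESeq2 and no filter gave 3 higher and 3 lower, and library totals and the block 3 lower. Leaving out 1 library gave 0 to 3 higher and 2 to 3 lower. From S0-Medium to S1, no filter called 1 higher (Cdkn2c) and 1 lower (Ccnd1). Lin+ against S0-Low had 1 higher (Cdkn2c) with DESeq2 and with no filter. Lin+ against S3 (4 higher, 2 lower) had 1 higher and 1 lower with the 10-count filter, 1 lower with RLE factors and with library totals, 4 lower with replicates 1 and 2 only, 5 higher with DESeq2, 3 lower with no filter, the block and the 6 libraries alone, and 1 to 2 lower and 3 to 5 higher when 1 library was left out. In the comparisons where the numbers were not taken to pair libraries, the replicate block called Cdkn1b higher in S3 against S0-Low (2.27, adjusted p = 5.45e-05). It called Ccnd3 lower in Lin+ against S3 (-1.32, adjusted p = 0.0429). Ccnd2 (-6.02, adjusted p = 9.25e-05) and Cdkn1a (2.19, adjusted p = 0.000944) kept their calls with it in S3 against S0-Low.

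The sign changed for Ccnd3 in S3 against S2 with library totals (-0.11) and for Cdkn1c in that comparison without S2 replicate 1, where the leave-one-out range was -9.04 to 0.72. In Lin+ against S0-Low it changed for Ccnd2 with the block (0.11), for Cdkn1b with the block (0.18), with replicates 1 and 2 only (0.62) and over leaving out 1 library (-0.70 to 1.00), and for Cdk4 over leaving out 1 library (-0.72 to 0.07). None of these was called. Over all genes in S3 against S0-Low, 2220 were called higher and 3712 lower, and over the alternatives that keep all replicates 1156 to 2640 and 1522 to 6228.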
